A study of Mus musculus with 8 samples.

Results

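The Zfp zinc finger genes are the autosomal protein-coding mouse genes whose symbols are Zfp and a number, and 360 of 20665 autosomal protein-coding genes of the RefSeq annotation had such a symbol. A member was called clustered when another member lay within 100 kb, which held for 208 genes in 50 runs, and single when none did, which held for 152 genes. Their GpC methylation was read by NOMe-seq in 8 bisulfite libraries of mouse embryonic fibroblasts (MEFs), on build mm10. In NOMe-seq, nuclei receive the enzyme M.CviPI, which methylates cytosines that follow a guanine where no nucleosome or other protein covers the DNA. The libraries form 4 groups of 2: MEFs on day 1 of reprogramming with Etv2 that received the enzyme (day 1 treated), control MEFs that received it (day 0 treated), day 1 cells without the enzyme (day 1 untreated) and control MEFs without it (day 0 untreated). Etv2 is an ETS transcription factor of endothelial and blood development, and its way of delivery is not stated in the labels. Nothing in the labels ties the 2 libraries of a group to separate cultures. Their spread, which the p-values measure, may therefore be technical. Each level is an average over many cells, so a site open in fewer cells and a site open for less of the time cannot be told apart.

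Most mouse Zfp genes encode proteins with arrays of fingers, each held by a zinc ion between cysteines and histidines, that bind DNA. Many also carry a KRAB domain, which recruits the corepressor Trim28 and through it histone and DNA methylation enzymes, and such proteins keep retroelements and imprinted regions silent. New KRAB zinc finger genes arise by local duplication and so lie in tandem clusters. The shared symbol is wider than this family: Zfp36, for example, is an RNA-binding protein with another kind of finger.

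The libraries held 1693307 to 3577740 calls, counting 1 call for each read at each site, and 87.2% to 88.1% of their sites carried exactly 3 reads, the fewest in the files. Sites over 100 reads were left out, and no member held one. At least 1 treated call lay within 1 kb of the ends of 148 of 208 clustered and 120 of 152 single genes, and inside the bodies of 182 and 135 genes. All 4 treated libraries had calls at the ends of only 10 clustered and 10 single genes, and in the bodies of 53 and 71. Clustered members had a median length of 15.8 kb and single members of 20.05 kb. Nearest to the threshold, Zfp605 and Zfp932 lay 97.8 kb apart and counted as clustered, and Zfp936 and Zfp715 lay 104 kb apart and counted as single. Chromosome 7 alone held 73 clustered and 17 single genes, while chromosomes 1, 3, 10, 12, 14 and 19 held single genes only.

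Promoter windows show what was read. RefSeq windows (GRCm38.p6, 250 bases before to 50 bases after a transcript start) were found for 180 clustered and 121 single genes, and the 50214 covered sites inside the windows of all genes, summed over the 8 libraries, all fell on GpC cytosines not followed by G on either strand. The windows of clustered genes held a median of 32 such sites each, single genes 38 and other genes 38. The median observed over expected CpG ratio was 0.591 in clustered, 0.720 in single and 0.584 in other windows. A ratio of at least 0.6 was reached by 49.5% of clustered, 61.3% of single and 48.8% of other windows. The 3 clustered and the 3 single genes with the most treated calls in such a window are printed here, 5′ to 3′ along the gene, with capitals for bases read in a treated library; a capital C is read on the strand shown and a capital G marks a cytosine of the other strand.
Zfp956 (clustered, chr6:47953140-47953439, + strand): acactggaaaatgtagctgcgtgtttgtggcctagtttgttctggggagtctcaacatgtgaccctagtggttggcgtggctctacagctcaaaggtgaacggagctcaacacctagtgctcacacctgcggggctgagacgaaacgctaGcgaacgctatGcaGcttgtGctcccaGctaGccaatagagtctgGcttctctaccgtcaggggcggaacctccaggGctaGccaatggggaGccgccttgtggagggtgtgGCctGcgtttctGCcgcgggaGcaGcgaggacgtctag
Zfp692 (clustered, chr11:58306819-58307118, + strand): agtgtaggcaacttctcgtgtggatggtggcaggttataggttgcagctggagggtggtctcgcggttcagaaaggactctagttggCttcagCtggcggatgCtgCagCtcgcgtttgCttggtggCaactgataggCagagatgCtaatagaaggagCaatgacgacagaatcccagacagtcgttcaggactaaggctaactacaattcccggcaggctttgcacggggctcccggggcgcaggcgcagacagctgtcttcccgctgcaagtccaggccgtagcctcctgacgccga
Zfp786 (clustered, chr6:47830456-47830755, - strand): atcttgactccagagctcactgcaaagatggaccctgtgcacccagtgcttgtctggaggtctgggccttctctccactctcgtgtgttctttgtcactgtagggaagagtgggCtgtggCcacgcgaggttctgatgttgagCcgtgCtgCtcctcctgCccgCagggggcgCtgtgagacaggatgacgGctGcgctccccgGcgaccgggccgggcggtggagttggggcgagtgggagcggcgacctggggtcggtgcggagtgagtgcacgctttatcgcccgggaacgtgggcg
Zfp219 (single, chr14:52019664-52019963, - strand): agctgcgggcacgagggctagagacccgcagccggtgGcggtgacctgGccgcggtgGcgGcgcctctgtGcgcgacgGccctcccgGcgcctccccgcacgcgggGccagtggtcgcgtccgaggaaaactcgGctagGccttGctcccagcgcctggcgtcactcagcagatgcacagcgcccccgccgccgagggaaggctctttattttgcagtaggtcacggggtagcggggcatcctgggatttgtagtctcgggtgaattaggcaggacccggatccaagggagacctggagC
Zfp292 (single, chr4:34882899-34883198, - strand): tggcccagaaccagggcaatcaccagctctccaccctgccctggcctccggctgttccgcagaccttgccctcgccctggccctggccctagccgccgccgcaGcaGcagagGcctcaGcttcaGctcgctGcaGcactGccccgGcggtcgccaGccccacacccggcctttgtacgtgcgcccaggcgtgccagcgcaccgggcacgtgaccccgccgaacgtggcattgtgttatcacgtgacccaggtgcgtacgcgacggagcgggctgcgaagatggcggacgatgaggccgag
Zfp513 (single, chr5:31202254-31202553, - strand): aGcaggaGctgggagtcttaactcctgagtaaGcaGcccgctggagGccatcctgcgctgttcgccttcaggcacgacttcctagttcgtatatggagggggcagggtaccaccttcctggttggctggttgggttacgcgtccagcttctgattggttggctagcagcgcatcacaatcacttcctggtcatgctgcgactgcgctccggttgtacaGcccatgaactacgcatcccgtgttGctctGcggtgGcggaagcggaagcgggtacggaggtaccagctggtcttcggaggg

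In the Zfp956 window 90.6% of 53 treated calls were methylated (exact 95% interval 79.3 to 96.9), with 83.3% in day 0 treated library 1 and 91.5% in day 0 treated library 2, against 0 of 15 untreated calls. The sites of that window with an unmethylated treated call lay 23 bp before the start, with 3 of 4 calls methylated, 19 bp before it, with 2 of 4, 8 bp before it, with 2 of 3, and 25 bp after it, with 2 of 3. Zfp692 had 42.9% of 42 treated calls methylated (27.7 to 59.0), all from day 0 treated library 2, against 0 of 21 untreated calls. Its methylated calls lay nearer to the start: each site from 163 to 141 bp before it had 1 methylated call of 4 or 5, and the sites 104 and 91 bp before it had 3 of 4. The Zfp786 window, at a start inside the annotated gene, had 54.5% of 33 treated calls methylated (36.4 to 71.9), also all from day 0 treated library 2. Its 4 sites from 99 to 77 bp before the start were methylated in 0 of 3 calls each, while those 59, 56 and 46 bp before it were methylated in 3 of 3. Neighbouring sites in a window share reads, so these stretches rest on a few DNA molecules, and the intervals cover counting error only.

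Among the single genes, Zfp219, which encodes a partner of Sox9 in cartilage cells, had 47.2% of 36 treated calls methylated (30.4 to 64.5), all from day 1 treated library 1, against 0 of 15 untreated calls. Sites from 213 to 190 bp before its start had 0 methylated calls of 3 each and those 116 and 111 bp before it had 3 of 3. Zfp292 had 83.3% of 30 treated calls methylated (65.3 to 94.4), from the same library, against 0 of 18 untreated calls. Zfp513 had 85.2% of 27 treated calls methylated (66.3 to 95.8), with 73.3% in day 0 treated library 1 and 100% in day 0 treated library 2. Pooled over all windows, clustered genes stood at 53.6 ± 5.75% on day 1 and 50.7 ± 10.3% on day 0 in treated libraries, and single genes at 51.6 ± 17.1% and 72.8 ± 6.50% (SD, n = 2 libraries each). Other genes stood at 51.6 ± 1.26% on day 1 and 56.7 ± 0.0529% on day 0.

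Within 1 kb of the annotated ends, clustered and single genes could not be told apart by their levels. In the day 1 treated libraries 37.0% and 34.2% of calls were methylated at clustered genes and 34.3% and 35.2% at single genes. In the day 0 treated libraries clustered genes had 37.7% and 39.96%, and single genes 42.3% and 38.8%. The clustered level was thus the higher of the pair in 2 of 4 libraries. On average clustered genes differed from single genes by -0.441 percentage points (SD 3.17 over 4 libraries; exact two-sided sign-flip permutation p = 0.875, smallest possible 0.125). Other autosomal protein-coding genes averaged 35.5 ± 0.310% on day 1 and 37.1 ± 0.392% on day 0 (SD, n = 2 each). All Zfp genes together exceeded them by 1.19 points (SD 1.60, higher in 3 of 4 libraries, exact p = 0.375). Restricted to the 10 clustered and 10 single genes with calls in all 4 treated libraries, the clustered minus single difference was 13.2 points.

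Without the enzyme, ends of clustered genes had 1.40% and 1.54% of calls methylated on day 1 and 1.88% and 1.04% on day 0. Ends of single genes had 1.22% and 0.857% on day 1 and 1.80% and 1.69% on day 0. On day 1 both clustered values were above both single values, on day 0 they overlapped, and clustered genes differed from single genes by 0.0717 points over the 4 untreated libraries (SD 0.547, exact sign-flip permutation p = 0.625).

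**Figure D1:**
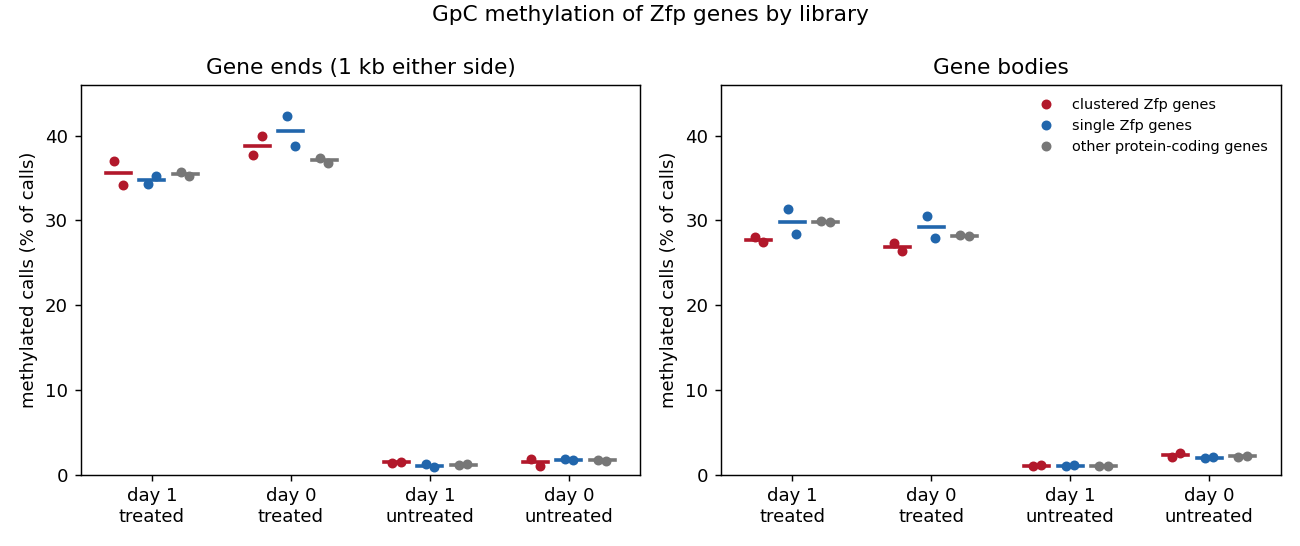
Percent of calls methylated in each library (points) and group mean (bars) at gene ends and in gene bodies, for clustered Zfp, single Zfp and other autosomal protein-coding genes. In gene bodies the clustered points of the treated libraries sit between 26.4% and 28.0%, below the single point of the same library in each of the 4, and all untreated points stay below 3%.

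In gene bodies, more than 1 kb inside the annotated ends, clustered genes were less methylated than single genes in each of the 4 treated libraries. Day 1 treated libraries gave 28.0% and 27.4% at clustered genes and 31.4% and 28.4% at single genes. Day 0 treated libraries gave 27.3% and 26.4% at clustered genes and 30.6% and 28.0% at single genes. The clustered minus single difference averaged -2.26 points (SD 1.23), lower in 4 of 4 libraries, with an exact sign-flip permutation p of 0.125, the smallest that 4 libraries allow, and 0.66 after Benjamini-Hochberg adjustment over 44 tests. Across libraries the values overlapped: day 0 treated library 2 had 28.0% at single genes and day 1 treated library 1 had 28.0% at clustered genes. Clustered bodies were also below those of other genes, which averaged 29.9 ± 0.0513% on day 1 and 28.2 ± 0.0148% on day 0 (SD, n = 2 each), by 1.75 points (difference -1.75, SD 0.597, lower in 4 of 4, exact p = 0.125). Single genes were 0.519 points above other genes (SD 1.71, higher in 2 of 4, exact p = 0.75).

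Untreated libraries did not show the lower level, but their single bodies had at most 2.02% of calls methylated. A difference of -2.26 points could not occur there. Clustered bodies had 0.962% and 1.07% on day 1 and 2.13% and 2.58% on day 0, and single bodies had 0.961% and 1.08% on day 1 and 1.91% and 2.02% on day 0. Set against the untreated libraries, the clustered minus single difference in treated libraries was lower by 2.46 points (difference -2.46). An exact permutation of the enzyme labels within days gave p = 0.0556, the smallest possible, and 0.66 after adjustment. At so low an untreated level this test cannot show whether the difference needs the enzyme. Sites per kb in day 1 treated libraries averaged 0.308 in clustered, 0.454 in single and 0.409 in other bodies, and at gene ends 0.449, 0.475 and 0.648. Whether this lower site density bears on the level was not tested. With sites of at least 4 reads alone the difference in bodies was -4.82 points.

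No move of the difference between clustered and single genes from one day to the other was detected. At gene ends it was 0.827 points on day 1 and -1.71 points on day 0, a change of 2.54 (exact permutation p = 0.667, smallest possible 0.333), and in bodies it was -2.12 points on day 1 and -2.41 points on day 0, a change of 0.285 (exact p = 1). Clustered ends had 35.6 ± 1.97% on day 1 and 38.8 ± 1.61% on day 0, and single ends 34.8 ± 0.667% and 40.5 ± 2.48% (SD, n = 2 each). In both classes each day 1 value was below each day 0 value, as in other genes, and each exact permutation p was 0.333, the smallest possible. Clustered bodies had 27.7 ± 0.409% on day 1 and 26.9 ± 0.603% on day 0, and single bodies 29.9 ± 2.11% and 29.3 ± 1.86%.

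The orientation of 180 clustered and 121 single genes could be taken from the promoter windows, which splits the ends into starts and far ends. At clustered genes the start was more open than the far end in each treated library: 39.5%, 41.5%, 42.3% and 53.3% of calls were methylated at starts in day 1 libraries 1 and 2 and day 0 libraries 1 and 2, against 26.1%, 31.1%, 28.3% and 29.3% at far ends. Start minus far end averaged 15.4 points at clustered genes (SD 5.97, higher in 4 of 4, exact sign-flip permutation p = 0.125, adjusted 0.333 over 16 tests). At single genes it averaged 8.49 points (SD 9.14, higher in 3 of 4, exact p = 0.25) and at other genes 9.27 points (SD 2.70, higher in 4 of 4, exact p = 0.125). The level at clustered starts exceeded that of other genes by 3.83 points on average and in 4 of 4 libraries (SD 5.37, exact p = 0.125), but day 0 treated library 2 gave 11.7 points and the mean without it was 1.22 points. A site shared by several genes counts for each of them here. Zfp786 and Zfp398, which share sites, had 86.7% of 45 and 83.3% of 48 end calls methylated in day 0 treated library 2. At clustered far ends the level was 2.33 points lower than at other genes (difference -2.33, SD 2.75, lower in 4 of 4, exact p = 0.125). Day 1 treated library 1 gave -6.33 points, library 2 of that group -0.197, and the day 0 treated libraries -1.86 and -0.937. Untreated libraries had 0.681% to 1.49% at clustered starts and 1.45% to 3.04% at clustered far ends.

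The stretch from 150 bp before to 50 bp after the start had the highest mean of both clustered and other genes on both days, and of single genes on day 1. There clustered genes had 54.1 ± 16.5% on day 1 and 57.7 ± 5.01% on day 0, and single genes 52.5 ± 27.1% and 66.8 ± 32.8% (SD, n = 2 each), from 108 to 232 calls a group. Other genes had 54.6 ± 0.0175% and 59.4 ± 0.866% in the same stretch. On day 0 the single genes had their highest mean from 500 to 150 bp before the start, with 67.5 ± 34.2% (SD, n = 2), at 91.7% in library 1 and 43.3% in library 2. From 50 to 500 bp inside the gene clustered genes stayed at 47.0 ± 1.17% on day 1 and 53.0 ± 9.64% on day 0. In that stretch single genes had 35.0 ± 7.66% and 43.5 ± 1.83%, and other genes 39.5 ± 1.34% and 41.4 ± 0.245%. This stretch was picked out after its values were seen, and it carries no test.

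**Figure D2:**
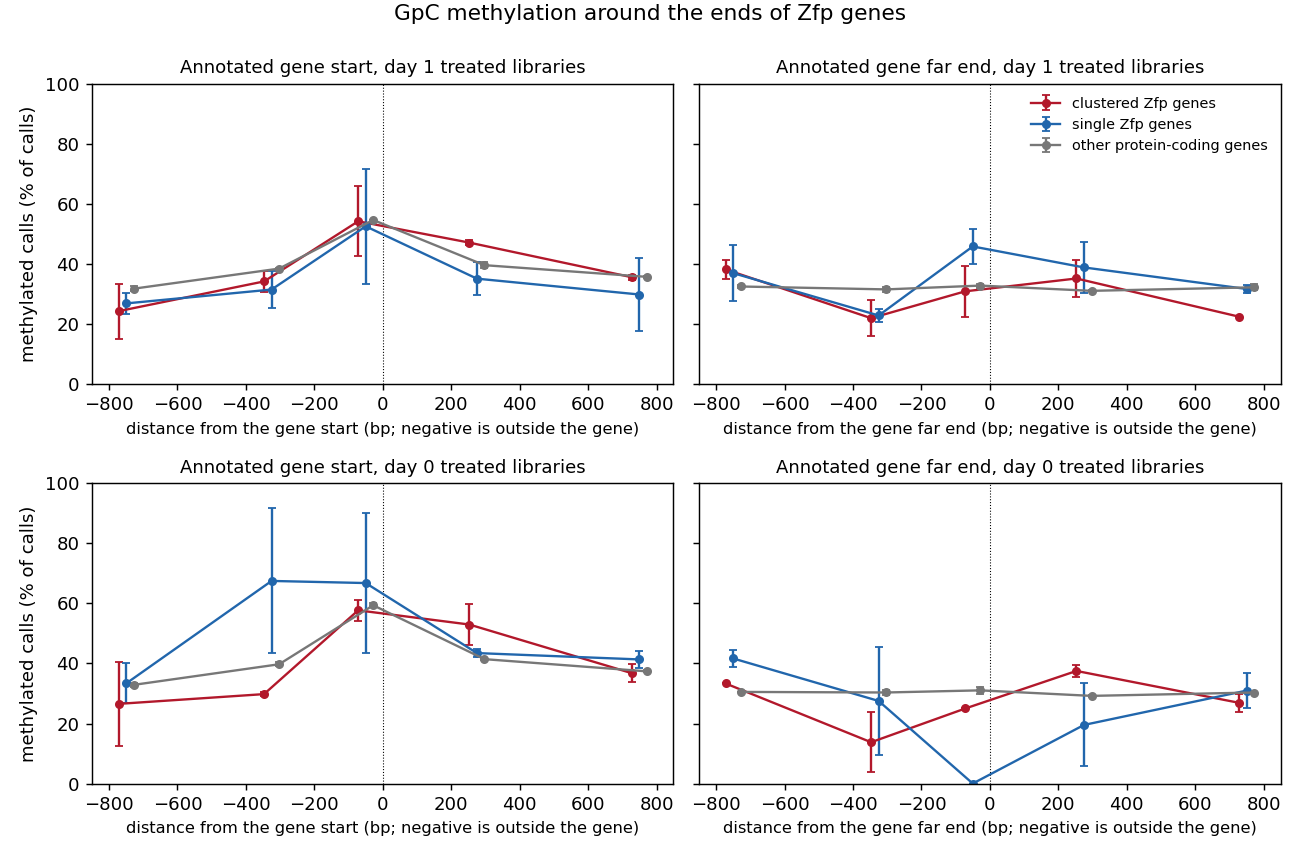
Percent of calls methylated by distance from the annotated start and far end in the treated libraries, with the mean of the 2 libraries (points) and both libraries' values (bars), plotted at the centre of each stretch. The means of clustered and other genes are highest around the start on both days, and the single Zfp bars there reach from 43.6% to 90.0% on day 0.

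Along the bodies, cut into 4 equal parts from the start, the clustered minus single difference was not even. In part 1 it averaged -3.75 points (SD 4.06, lower in 4 of 4 libraries, exact p = 0.125) and in part 3 it averaged -4.89 points (SD 2.37, lower in 4 of 4, exact p = 0.125). In part 2 it averaged -0.605 points (lower in 2 of 4, exact p = 0.75) and in part 4 -0.716 points (lower in 3 of 4, exact p = 0.625). The differences between the parts were not tested.

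By chromosome, the body level of clustered genes was below that of single genes on 11 of the 13 chromosomes that hold both kinds, and the level at ends on 8 of 13. In bodies the widest gap with over 300 calls in each class was on chromosome 2, with 21.6% in 11 clustered and 30.9% in 13 single genes, lower in 4 of 4 treated libraries. Chromosomes 6 and 11 went the other way. Chromosome 6 had 30.1% in 11 clustered and 29.8% in 6 single genes, and chromosome 11 had 28.6% in 7 clustered and 27.6% in 10 single genes. On chromosome 7, home of the most members, clustered bodies had 29.0% and single bodies 30.6%. At gene ends chromosome 4 had 24.3% in clustered and 58.3% in single genes, lower in 4 of 4 libraries, while chromosome 17 had 39.8% in clustered and 29.3% in single genes, higher in 4 of 4. The ends of chromosome 4 rest on 350 and 144 calls and those of chromosome 17 on 688 and 290.

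**Figure D3:**
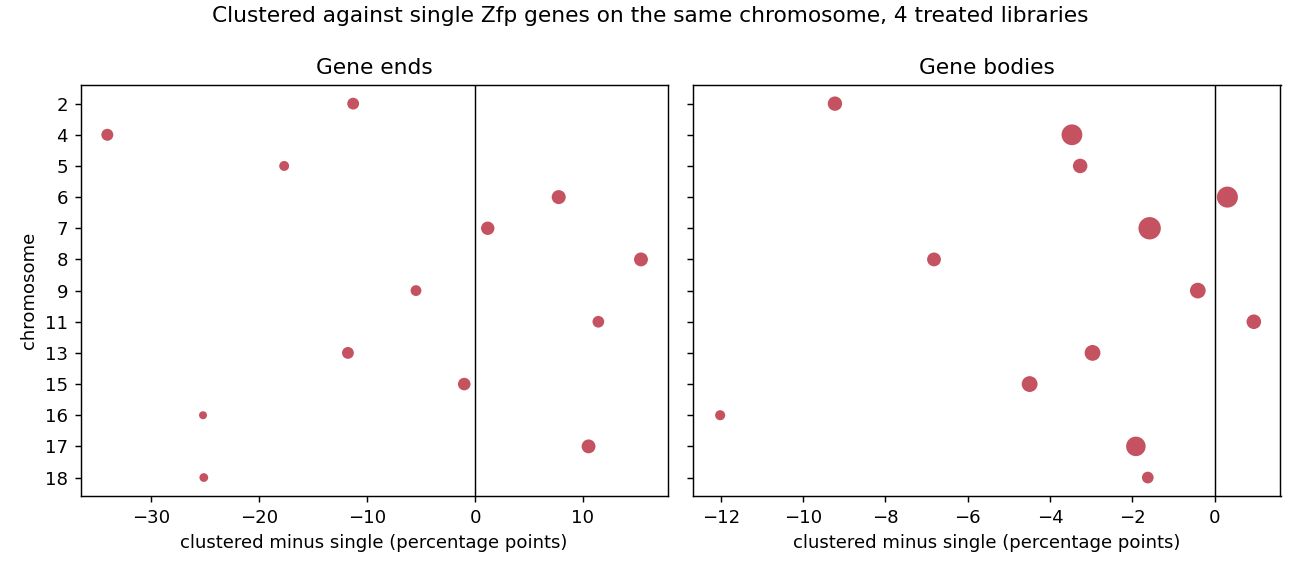
Clustered minus single difference in methylated calls on each of the 13 chromosomes that hold both kinds of Zfp gene, over the 4 treated libraries, with larger points for more calls. The points of the gene bodies lie below 0 on 11 chromosomes and those of the gene ends on 8.

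The 5 clusters with the most members ranged from 29.6% to 47.8% at their ends. The largest, 15 genes from Zfp84 to Zfp146 at chr7:29768552-30169775, had 37.7% of 215 treated calls methylated at its ends and 30.6% of 686 in its bodies. Its ends stood at 59.5% and 21.1% on day 1 and 28.6% and 32.1% on day 0, so that its day 1 libraries enclosed both day 0 values. The 14 genes from Zfp712 to Zfp748 at chr13:67038594-67553152, among them Zfp708 and Zfp459, had 47.8% of 69 calls at ends and 24.6% of 248 in bodies. The 13 genes from Zfp677 to Zfp943 at chr17:21383707-21994366 had 44.4% of 248 calls at ends and 30.9% of 764 in bodies, the bodies standing at 32.6% and 36% on day 1 and 20.5% and 16.7% on day 0. Both day 1 bodies of that cluster were above both day 0 bodies, which rest on 88 and 78 calls. The bodies of the largest cluster, from Zfp84 to Zfp146, went the other way. They stood at 25.8% and 28.1% on day 1 and 32.3% and 37.3% on day 0. The 10 genes from Zfp180 to Zfp94 at chr7:24081877-24316698 had 29.6% of 257 calls at ends and 33.8% of 429 in bodies. The 9 genes from Zfp978 to Zfp933 at chr4:147124882-147849126 had 29.7% of 236 calls at ends and 26.5% of 1990 in bodies. A smaller cluster, 7 genes from Zfp786 to Zfp746 at chr6:47815536-48086986, had 53.1% of 548 calls at ends, with 44.9% and 40% on day 1 and 51.6% and 65.3% on day 0; it is named because it holds Zfp956, Zfp786, Zfp398 and Zfp282.

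Single members varied more than the class means. Of genes with at least 20 treated calls, the 84 clustered and 67 single genes had median levels of 37.0% and 36.4% at their ends, with ranges of 8.70% to 73.2% and 4.76% to 85.5%. Bodies, with 134 clustered and 119 single genes, had medians of 28.1% and 29.2%. The outermost members, named after their values were seen, were Zfp566 and Zfp407 at gene ends and Zfp574 in bodies. Zfp566 had 73.2% of 56 treated calls methylated (exact 95% interval 59.7 to 84.2), with 83.0% in day 1 library 1 and 22.2% of 9 calls in day 1 library 2, the level left without library 1. Zfp407 had 85.5% of 55 calls (73.3 to 93.5), with 78.4% in day 1 library 2 and 100% in day 0 library 1. Zfp574, a single gene, had 93.8% of 48 body calls (82.8 to 98.7), with 100% in day 1 library 1, 75% in day 0 library 1 and 100% in day 0 library 2. Its untreated libraries had 0 methylated of 42 calls there.

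**Figure D4:**
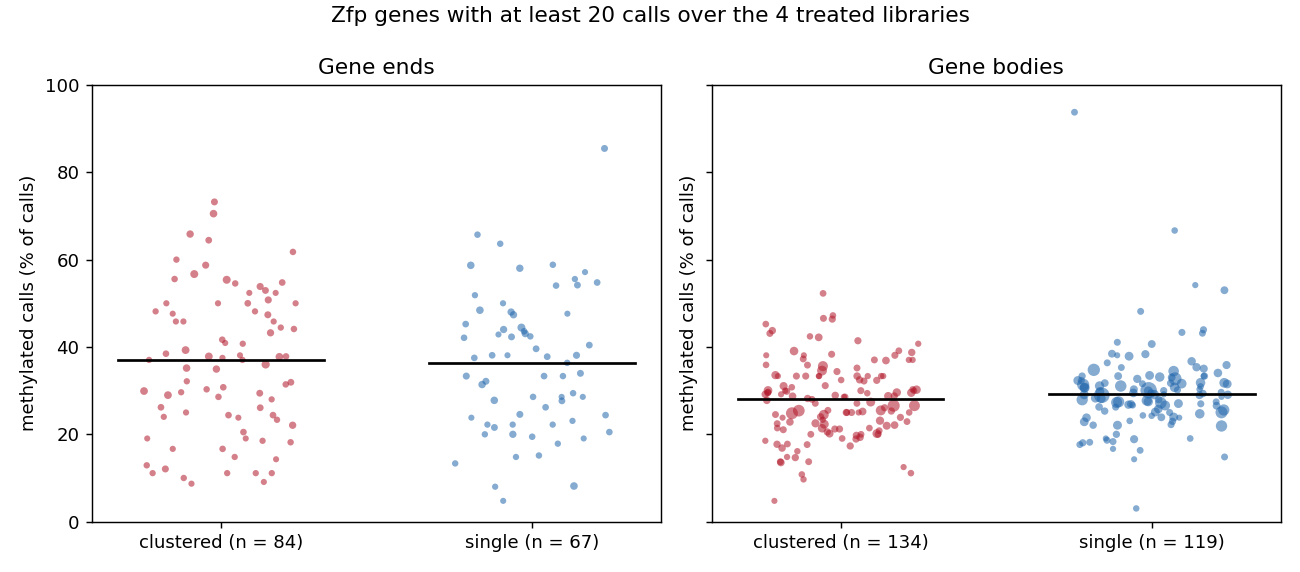
Percent of calls methylated over the 4 treated libraries in each Zfp gene with at least 20 such calls, by class, with larger points for more calls and bars at the medians. The medians lie at 37.0% and 36.4% for gene ends and 28.1% and 29.2% for bodies, and Zfp574 stands alone at 93.8%.

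The clustered genes with the most calls at their ends were Zfp282, Zfp786, Zfp398, Zfp251 and Zfp978. Zfp282 had 36% of 150 treated calls methylated (28.3 to 44.2), with 66.7% in day 1 library 2 and 35.7% and 25% on day 0, against 0 of 111 untreated calls. Zfp786 and Zfp398 overlap head to head and share sites at their ends. They had 55.4% of 130 and 56.7% of 127 calls; Zfp398 stood at 33.3% in day 1 library 1 and at 51.6% and 83.3% on day 0. Zfp251 had 39.3% of 112 calls, with 66.7% and 9.80% on day 1 and 86.7% and 51.6% on day 0; it had 63.9% without day 1 library 2. Zfp978 had 37.8% of 111 calls. The day values of Zfp251 overlapped, while the only day 1 value of Zfp282 was above both of its day 0 values. In all, 14 pairs of members, with 26 genes, had overlapping end windows. Pooled levels of ends and bodies count each site once. Levels at starts and far ends, by distance, by body part and over promoter windows count a shared site once for each gene or window.

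The single genes with the most calls at their ends were Zfp775, Zfp414, Zfp408, Zfp292 and Zfp358. Zfp414 was low in each library, at 13.3% and 11.1% on day 1 and 8.33% and 2.86% on day 0, in all 8.16% of 98 calls (3.59 to 15.5), against 1.39% of 72 untreated calls. Zfp775 had 44.4% of 126 calls, with 63.0% and 36.7% on day 1 and 30.0% and 48.7% on day 0. Zfp292 had 58.7% of 92 calls. Zfp408 had 48.4% of 95 calls, with 23.1% and 35.9% on day 1 and 100% and 33.3% on day 0, and 31.0% without day 0 library 1. Zfp358 had 27.8% of 90 calls, with 27.8% and 35.1% on day 1 and 0 of 15 calls in day 0 library 2, and 15.2% without day 1 library 2. At Zfp358 6.25% of 128 untreated calls were methylated, all 8 of them in day 0 untreated library 2 (15.7% of 51 calls), against 0 of 77 in the other untreated libraries.

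Members known for their functions were read with few calls: of 16 such genes, 13 had treated calls at their ends and 14 in their bodies. Among those that guard imprints, Zfp57, which keeps DNA methylation at imprinting control regions, had 50% of 18 calls at its ends (26.0 to 74.0) and 30.3% of 132 in its body (22.6 to 38.9). Zfp445, which shares that role, had 16.7% of 24 calls at its ends (4.74 to 37.4) and 43.1% of 58 in its body. Zfp568, a repressor of an Igf2 promoter in the embryo, had 40.9% of 22 calls at its ends, all from day 0 library 2, and 29.6% of 169 in its body.

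Of the retroelement repressors, Zfp809, which silences murine leukaemia viruses in stem cells, had 33.3% of 15 calls at its ends and 33.3% of 63 in its body (21.95 to 46.3). Zfp708 had 0 of 6 calls at its ends, all from day 0 library 2, which allows a share of up to 45.9% by the exact interval if calls are independent. Its body had 37.0% of 27 calls methylated. Zfp932 had 3 calls at its ends and none in its body. Zfp961 had 52.9% of 51 calls at its ends, with 8.33% and 77.8% on day 1 and 57.1% in day 0 library 2, and 11.1% of 36 in its body, which became 22.2% without day 1 library 1 and 4.76% without day 1 library 2. Zfp459 and Zfp819 had no treated call at their ends, and 18.9% of 74 and 8.33% of 12 calls in their bodies.

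Among regulators of cell state, Zfp42, the stem cell marker also called Rex1, had 33.3% of 6 calls at its ends and 43.1% of 51 in its body (29.3 to 57.8). All 22 methylated calls of that body came from day 0 library 1 (45.8% of 48 calls), and day 1 library 1 had 0 of 3. Zfp281, a regulator of pluripotency, had 42.1% of 38 calls at its ends (26.3 to 59.2), with 11.1% in day 1 library 1 and 57.1% and 100% on day 0, and 70% without day 1 library 1. Zfp423, a determinant of fat cell precursors and a long gene, had the most body calls of these genes, with 28.9% of 3337 (27.4 to 30.5): 32.5% and 28.7% on day 1 and 27.6% and 26.4% on day 0. Both day 1 values were above both day 0 values. The same held for pooled bodies of other genes, with 29.9% and 29.8% on day 1 and 28.2% and 28.2% on day 0. Zfp462 had no treated call at its ends and 33.1% of 317 in its body. Zfp217 had 33.3% of 9 calls at its ends and 31.8% of 368 in its body, and Zfp148 73.3% of 15, all from day 1 library 2, and 30.0% of 237. Zfp36, whose protein speeds the decay of cytokine mRNAs, had 33.3% of 18 calls at its ends, all from day 0 library 2.

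Whole gene loci, each gene with 1 kb on both sides, were tested for a change between the days with edgeR's quasi-likelihood test on methylated and unmethylated counts. Of the members 48 had 20 calls in every library, 13 of them clustered and 35 single. In the treated libraries 0 of 48 Zfp loci were called at an adjusted p under 0.05, against 0 of 5655 loci of all genes, which is 0%; 1 Zfp locus and 176 of all loci had an unadjusted p under 0.05, and limma on log odds also called 0 of all loci, with 0 and 67 at an unadjusted p under 0.05. The median change was -0.21 at clustered, 0.02 at single and 0.10 at all loci, on the log2 odds scale and day 1 minus day 0. The largest was at Zfp956, where 33.3% and 30.0% of calls were methylated on day 1 and 25% and 77.5% on day 0, a change of -1.49 (edgeR unadjusted p = 0.048, adjusted 0.999). Its day 0 libraries enclosed both day 1 values, and the change was 0.46 without day 0 treated library 2 and -2.89 without library 1 of that group.

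The next loci by unadjusted p had adjusted p-values of 0.999 in edgeR as well. Zfp532 had 31.8% and 33.3% on day 1 and 22.05% and 18.8% on day 0, a change of 0.92. Zfp148 had 29.7% and 43.2% on day 1 and 15.6% and 33.3% on day 0, a change of 0.89. Zfp64 had 32.2% and 38.8% on day 1 and 29.9% and 21.5% on day 0, a change of 0.68. Of these 3 genes Zfp532 and Zfp64 had day groups that did not overlap. Zfp982 had 28.3% and 31.3% on day 1 and 24.03% and 19.8% on day 0, a change of 0.58, and Zfp992 had 30.3% and 24.3% on day 1 and 21.4% and 20.5% on day 0, a change of 0.51. Both had day groups that did not overlap. All these loci were picked by this same contrast, so such separation is no further evidence of a change. On the other side stood Zfp398 at -0.78, Zfp1 at -0.69, Zfp827 at -0.32 and Zfp978 at -0.31. Single libraries decided several of these values. Zfp398 gave 0.0091 without day 0 treated library 2 and -1.46 without library 1 of that group, and Zfp978 gave 0.12 without day 0 treated library 1 and -0.68 without library 2. Zfp827 gave -0.0011 without day 0 treated library 1 and -0.62 without library 2, and Zfp148 gave 0.15 and 1.57 without the same libraries and 0.48 without day 1 treated library 2. Without day 0 treated library 2 Zfp64 gave 0.37. Without day 1 treated library 1 Zfp992 gave 0.28, Zfp1 -0.42 and Zfp978 -0.069, and without day 1 treated library 2 Zfp978 gave -0.52.

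In the untreated libraries 1 of 48 Zfp loci was called, against 296 of 5655 loci, which is 5.23% of all loci, 4 of them upward. That locus was Zfp638 on chromosome 6 (83867068 to 83986871), whose human counterpart silences retroviral DNA that has not integrated. It fell to 0 of 128 and 0 of 217 calls on day 1, against 4.196% of 143 and 3.51% of 57 calls on day 0 (edgeR adjusted p = 0.0174). The 0 of 345 calls of both day 1 libraries allow a share of up to 1.06% by the exact interval if calls are independent, against 4% on day 0 (8 of 200 calls). The median change over all loci was -1.01 on the log2 odds scale, and it was -1.22 at clustered and -1.11 at single Zfp loci. Centred on the median of each library, Zfp638 had an adjusted p of 0.320 and was not called. It was not called either without day 1 untreated library 1 (0.0525), without day 1 untreated library 2 (0.147) or without day 0 untreated library 1 (0.144), nor with only the 4 untreated libraries in the fit (0.211), all from edgeR. In the treated libraries the Zfp638 locus had 31.3% and 26.8% on day 1 and 28.9% and 25.7% on day 0.

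**Figure D5:**
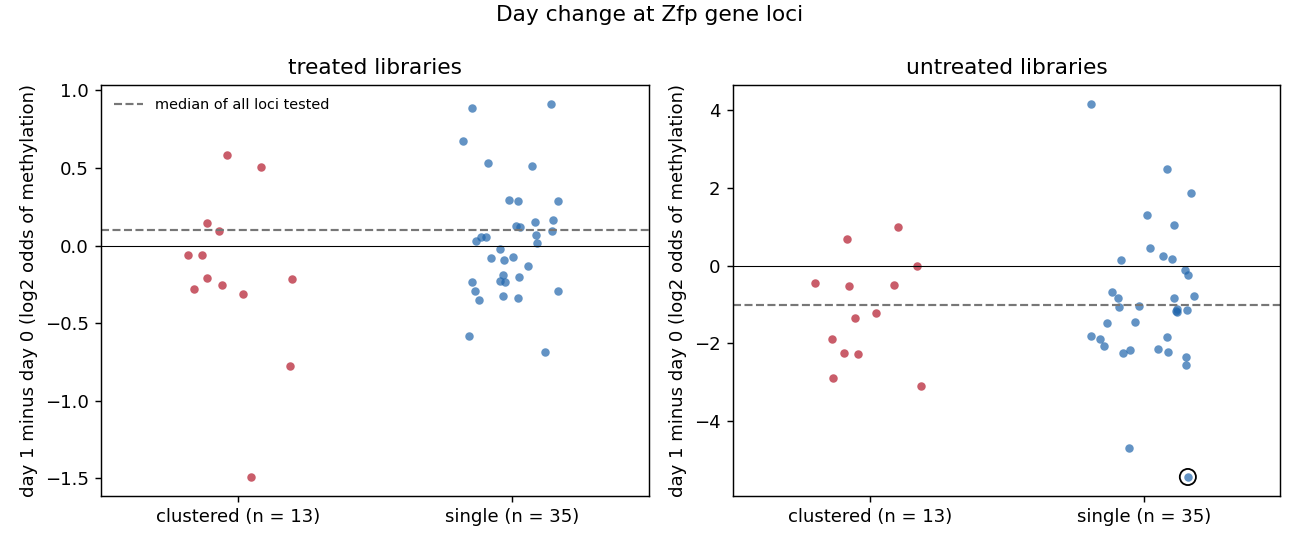
Day 1 minus day 0 change on the log2 odds scale at the 48 tested Zfp loci, by class, in treated and untreated libraries, with a dashed line at the median of all 5655 loci and a ring around the 1 locus called. Loci with no methylated call on a day have changes whose size depends on the prior count of the fit.

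Of 26 genes of the KRAB repression pathway, among them Trim28, Setdb1 and the heterochromatin proteins Cbx1, Cbx3 and Cbx5, 10 loci had the coverage for this test. In edgeR 0 of the 10 were called in treated libraries, with 0 at an unadjusted p under 0.05 and a median change of 0.02 (all loci 0.10), and 0 were called in untreated libraries, with 2 at an unadjusted p under 0.05 and a median of -0.96 (all loci -1.01). Their ends had 49.3 ± 1.31% of calls methylated on day 1 and 42.6 ± 11.0% on day 0 in treated libraries (SD, n = 2 each), and their bodies 29.4 ± 2.95% and 29.2 ± 1.68%. Of these 26, Zfp57, Zfp445 and Zfp809, are members. NOMe-seq reads no RNA, so the cell type of the labels could be set only against the openness of fibroblast and endothelial genes. Ends of 14 fibroblast genes had 39.4 ± 1.09% on day 1 and 52.2 ± 16.2% on day 0, and ends of 10 endothelial genes 20.5 ± 2.27% and 50.5 ± 22.8%, from 99 to 256 calls a group. Fibroblast loci tested numbered 4 and endothelial loci 2; edgeR called 0 of them in treated libraries, and 1 fibroblast and 0 endothelial loci were called in untreated libraries.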

How the data were processed

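The authors deposited 1 line per cytosine and library on mm10, per the submitters' processing notes, with the fraction of methylated reads and the count of reads; the columns are unnamed, and their units follow from their values. Of aligner, caller and duplicate handling nothing is given in the sources used here. Methylated reads are the rounded product of both columns. Sites of at most 100 reads were pooled by library over gene ends (1 kb either side) and bodies, from RefSeq coordinates of GRCm38.p6. Intervals are exact (Clopper-Pearson, 95%) and cover counting error only. They take each call as independent, although neighbouring sites share reads, and may be too narrow. Levels were compared by exact two-sided permutation over libraries and loci by edgeR 4.0.16 (limma 3.58.1 as an alternative, R 4.3.3) on all 8 libraries, over loci with 20 calls in every library, Benjamini-Hochberg adjusted at 0.05; this fit was tested on simulated data. Python 3.11.15, numpy 2.4.6, pandas 2.3.3, scipy 1.17.1 and matplotlib 3.10.9 did the rest. Alternatives varied reads, window, cluster distance, weighting and libraries.

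Named genes are the 5 loci with the smallest p in each direction, the 5 genes of each class with the most treated calls at their ends, 16 known members and the 5 largest clusters. The members, lists and tests were chosen with earlier results of these data known. Same-numbered libraries did not deviate together (correlations from -0.0242 to 0.0192 over 5655 loci).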

Additional observations from a re-analysis of the deposited data

Results flagged for a closer look

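The 7 X-linked Zfp genes stand outside the comparison of autosomal genes, and enzyme-dependent signal was read there too. Their ends had 45.3% of 75 treated calls methylated (exact 95% interval 33.8 to 57.3), against 1.59% of 63 untreated calls (0.0402 to 8.53). Their bodies had 23.7% of 219 treated calls methylated (18.3 to 29.9), against 0 of 97 untreated calls, which allows up to 3.73% if calls are independent.

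In 6 of 54 contrasts between gene sets, both libraries of day 1 went one way and both of day 0 the other. The difference between the days was not tested in these. With 2 libraries of each day, random signs alone give this pattern about as often. The 54 contrasts also share gene sets, so they are not independent. Single minus other genes changed between the days by -8.12 points at starts and -4.03 points in body part 1 of treated libraries, by 3.21 points in body part 4, and by -0.608 points at starts of untreated libraries. Clustered minus single genes changed by 1.17 points at starts, and clustered minus other genes by -1.21 points in body part 4, in untreated libraries.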

How the results depend on the processing

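The lower body level of clustered genes kept its direction under each alternative run, from -4.82 to -1.66 points; it was -3.00 with genes of at most 50 kb and -2.27 with only chromosomes that hold both kinds, 2 alternatives chosen after seeing the data. With at least 4 reads a site it was -4.82, its treated minus untreated value -5.07, its day change 2.50 and the day change at ends -9.19. Only genes with calls in all 4 libraries gave 13.2 for the treated ends, 13.1 for treated minus untreated and 7.98 for the day change there. With each gene weighing the same, untreated bodies gave -0.190. The cause was not tested. Leaving out 1 library gave -2.87 to -1.66 for treated bodies, 0.108 to 0.280 for untreated bodies, -1.88 to 1.00 for treated ends, -0.108 to 0.252 for untreated ends, -3.06 to -1.85 (bodies) and -1.96 to 0.932 (ends) for treated minus untreated, and -0.921 to 1.49 (bodies) and -0.352 to 5.42 (ends) for the day change. Untreated Zfp loci called were 0 of 48 with libraries centred, where 14 of 5655 loci of all genes were called. With limma they were 3 of 48, against 942 of 5655. With only the 4 libraries compared they were 0 of 48, against 21 of 5655. In the treated contrast that edgeR setting called 0 of 48 Zfp loci, against 3 of 5655. There 2 Zfp loci and 358 of all loci had an unadjusted p under 0.05. Without 1 library Zfp956 ranged from -2.89 to 0.46, Zfp398 from -1.46 to 0.0091 and Zfp978 from -0.68 to 0.12. A replicate block in the edgeR fit gave 0 treated and 1 untreated Zfp loci called. For the day changes of 2.54 at ends and 0.285 in bodies such a block returns the main values by construction, so it checks nothing there. The labels do not say whether the shared numbers pair the libraries. Depth limits single genes: most sites have 3 reads.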
